A study of Mus musculus with 7 samples.

Results

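Collagens and laminins are the main structural proteins of the extracellular matrix. The genes described here are the 44 protein-coding genes of mouse chromosomes 1 to 19 named as collagen chains, other than types V and VI, or as laminin alpha, beta or gamma chains in GENCODE M21 on mm10. They comprise 33 collagen and 11 laminin genes, of 20807 protein-coding genes on those chromosomes. For each gene, the gene body together with 3 kb on either side of its annotated start was examined for open chromatin and for binding of TRF2, and this interval is called its territory. The choice used names only and no measured value.

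Muscle stem cells (MuSCs) lie under the basement membrane that surrounds each muscle fibre. That sheet is built from heterotrimeric laminins, one alpha, one beta and one gamma chain each, and from a network of type IV collagen, with types XV and XVIII attached to it. Fibrillar collagens form the cables of the tissue between the fibres, and FACIT collagens decorate those cables. Laminins and collagens are read by integrins, dystroglycan and discoidin domain receptors on the cell surface. TRF2, encoded by *Terf2*, is a shelterin subunit that binds the TTAGGG repeats of telomeres and caps them.

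The assay for transposase-accessible chromatin with sequencing (ATAC-seq) was run on MuSCs sorted from hind-limb muscle of uninjured mice, with 2 Control and 2 TRF2KO libraries, described as biological replicates. TRF2KO animals carried floxed TRF2 alleles and the tamoxifen-inducible Pax7 creER (Gaka) driver on a C57BL/6 background, so that deletion was aimed at Pax7-expressing cells, and tamoxifen was given to young adults. The genotype label of the TRF2KO libraries reads wild type, so the groups were taken from the sample titles. Whether a library came from 1 mouse or from pooled mice is not given in the sources used here. TRF2 binding was profiled by cleavage under targets and tagmentation (CUT&Tag) in 2 TRF2 replicates and 1 rabbit IgG control, from MuSCs of notexin-injured muscle. The labels give wild-type cells of the tibialis anterior 3 days after injury, whereas the study's methods name Pax7gCre/gCre;TdTomatofl/fl control mice, the gastrocnemius as well as the tibialis anterior, and an earlier time. Binding and accessibility were thus measured in cells of different states.

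A peak is described by its MACS fold and by the percentile rank of that fold among all peaks of its library. The fold is the fragment pileup at the summit over background, with 1 added to each. The ATAC libraries held 84102 to 100521 peaks, with a median of 27 to 30 fragments at the summit. The TRF2 libraries held 12290 and 15479 peaks and the IgG library 656, with a median of 9 fragments, so a weak TRF2 peak rests on few molecules. The peak at the start of *Terf2* itself had folds of 54.3 and 48.4 in Control and 21.5 and 18.6 in TRF2KO, without overlap. All 7 MuSC marker genes had a start peak in all 4 ATAC libraries, although *Itga7* and *Vcam1* encode surface proteins used in the sort. The sort also removed cells with CD45, CD31, CD11b or Sca1 on their surface. None of the 4 immune markers had one in any library. Of markers of other cells, 3 of 4 endothelial genes, 1 of 4 fibroblast and fibro-adipogenic genes, 2 of 3 smooth muscle and pericyte genes, 1 of 2 Schwann cell genes and the 1 tenocyte gene tested had a start peak in all 4. *Pdgfra*, the marker of fibro-adipogenic progenitors, had start folds of 15.4 and 10.4 in Control and 48.9 and 12.9 in TRF2KO. The first TRF2KO library thus stood apart at *Pdgfra*. *Ly6a*, which encodes Sca1, had a start peak in the TRF2KO libraries only, with folds of 3.66 and 2.95, as had the pericyte gene *Rgs5*, with 6.18 and 3.40. The smooth muscle gene *Acta2* went the other way, with 51.8 and 43.7 in Control and 25.8 and 26.3 in TRF2KO. What part these differences have in the collagen and laminin values was not tested.

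The sequences under the TRF2 regions are shown first, because they separate the regions into kinds. A TRF2 region is an interval with a MACS peak in both TRF2 replicates. The 120 bases centred on the summit are printed on the plus strand of mm10, first for the 3 gene starts that carried such a region. At *Lamc1* (chr1:153333074-153333193), upstream of the start, capitals mark matches to a G-quadruplex (G4) motif, at least 4 runs of 3 or more G with loops of 1 to 7 bases. At *Lama5* (chr2:180227862-180227981) and *Col14a1* (chr15:55308087-55308206) no G4 match lay in the window.
Lamc1 start: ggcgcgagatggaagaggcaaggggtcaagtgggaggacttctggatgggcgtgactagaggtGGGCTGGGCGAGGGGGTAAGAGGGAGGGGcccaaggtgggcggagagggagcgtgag
Lama5 start: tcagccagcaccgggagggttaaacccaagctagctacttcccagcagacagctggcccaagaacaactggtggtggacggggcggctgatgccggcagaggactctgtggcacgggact
Col14a1 start: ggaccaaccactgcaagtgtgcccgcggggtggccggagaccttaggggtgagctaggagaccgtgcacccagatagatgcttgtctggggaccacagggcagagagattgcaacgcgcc

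In gene bodies, simple repeats lay under TRF2 regions of *Col18a1* and *Col19a1*. The region in an intron of *Col18a1* (chr10:77135115-77135234) holds a TAGGG repeat, capitals marking the G4 match. The region in an intron of *Col19a1* (chr1:24331261-24331380) is a CA repeat with no G4 match.
Col18a1 intron: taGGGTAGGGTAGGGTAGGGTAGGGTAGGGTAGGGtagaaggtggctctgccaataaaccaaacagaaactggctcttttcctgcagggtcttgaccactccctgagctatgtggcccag
Col19a1 intron: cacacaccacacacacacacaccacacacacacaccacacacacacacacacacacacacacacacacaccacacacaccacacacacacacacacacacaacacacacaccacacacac

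The IgG control had a peak at 3 of the 18 TRF2 regions found in collagen and laminin territories, those in introns of *Lama1*, *Col19a1* and *Col4a4*. The *Lama1* region was the strongest of the 18, with folds of 30.2 and 35.3 and 114 and 122 fragments in the TRF2 replicates. MACS called an ATAC peak there in the second TRF2KO library alone, with a fold of 5.45, whereas GoPeaks called the site in all 4 libraries. *Lama1* encodes an alpha chain of the laminin of the early embryo. The *Col19a1* region had folds of 5.56 and 9.87, and the *Col4a4* region 4.14 and 7.37. At *Col18a1*, where IgG had no peak, the folds were 4.47 and 5.12, from 8 and 9 fragments.

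At gene starts, open chromatin was more frequent and TRF2 less frequent than across the genome. Within 3 kb of the start, 38 of 44 genes had an ATAC peak in all 4 libraries (86.4%), against 65.8% of all protein-coding genes. A start peak was missing from every library at 3 genes (6.82%), against 27.7% of all genes. The start peaks were nevertheless of middling strength, with a median rank of 71.8 over the 38 genes against 88.8 over all genes with a start peak in all 4 libraries. These shares are descriptions of a named set and carry no test.

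Among the 8 fibrillar collagens all had a start peak in every library. *Col1a1*, which encodes the alpha-1 chain of type I collagen, was the highest, with folds of 52.2 and 39.8 in Control and 51.5 and 43.4 in TRF2KO. The 2 groups overlapped. Its partner *Col1a2* had start folds of 14.7 and 11.2 in Control and 10.1 and 10.9 in TRF2KO. The *Col1a2* summits lay 2739 to 2792 bases inside the gene. *Col27a1*, a fibrillar collagen of cartilage, ranked next to *Col1a1*, with 34.3, 25.2, 30.9 and 34.3 over the 4 libraries in the order Control then TRF2KO. The *Col27a1* summits lay 2494 to 2524 bases inside the gene. *Col3a1*, *Col2a1*, *Col11a2*, *Col24a1* and *Col11a1* followed, with mean ranks from 74.2 down to 22.9. *Col2a1* and the *Col11a* genes encode chains of cartilage fibrils.

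In the FACIT class, 6 of 9 genes had a start peak in all 4 libraries. *Col16a1* had the highest mean rank of all 44 genes, 96.1, with folds of 100, 84.9, 88.7 and 85.6. Its summit lay 2867 bases inside the gene, and a separate peak covered the start with folds of 47.2, 42.1, 47.8 and 44.7. *Col12a1*, *Col19a1*, *Col22a1*, *Col14a1* and *Col9a2* had mean ranks from 80.4 down to 37.3. *Col22a1* marks the junction of muscle and tendon. *Col9a1* had no start peak in any library, while *Col20a1* and *Col9a3* lacked one in the first TRF2KO library alone. The strongest start fold at these last 2 genes was 5.04.

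Among network and anchoring collagens, the short-chain *Col8a1* and *Col8a2* had start peaks throughout, with mean ranks of 74.4 and 53.6. *Col10a1*, the collagen of hypertrophic cartilage, had no ATAC region anywhere in its territory. *Col7a1*, the anchoring fibril collagen of skin, had a start peak only in the second Control library (2.70) and the second TRF2KO library (3.18). All 4 transmembrane collagens had start peaks in every library. *Col23a1* led them with folds of 48.1, 38.0, 44.8 and 38.6, followed by *Col25a1* with 37.1, 33.8, 35.2 and 36.1, then *Col13a1* and *Col17a1* with mean ranks of 70.3 and 46.3. *Col25a1* acts in the innervation of muscle and *Col13a1* at the neuromuscular junction. Of the remaining collagens, *Col26a1* had folds of 37.1, 29.7, 34.8 and 35.0, and *Col28a1* had no start peak. The *Col26a1* summits lay 1564 to 1597 bases inside the gene.

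All 6 basement membrane collagens had a start peak in all 4 libraries. *Col4a1* and *Col4a2*, whose products form the common type IV network, are transcribed away from each other and shared a start region with folds of 37.5, 33.1, 40.3 and 36.3. *Col4a3* and *Col4a4*, which belong to the network of kidney glomeruli, shared a much weaker one with 8.98, 9.36, 7.09 and 7.72. *Col18a1*, the source of endostatin, and *Col15a1* had mean ranks of 77.5 and 73.4.

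The 11 laminin genes all had a start peak in every library. *Lamc1*, the gamma chain of most laminins, had folds of 80.5 and 73.4 in Control and 105 and 87.2 in TRF2KO. *Lama5* had 76.9 and 60.8 against 60.2 and 49.0, with a summit 2166 bases upstream of its start. *Lama2*, the alpha chain of the adult muscle basement membrane, had 56.4 and 46.8 against 45.5 and 44.7, from a peak 2799 bases inside the gene. The RefSeq start of *Lama2* lies 2816 bases inside the GENCODE gene, close to that summit. *Lama3* had 35.2, 28.6, 29.5 and 28.1. The remaining alpha chains *Lama1* and *Lama4* had mean ranks of 55.3 and 47.0. *Lamb2*, the beta chain of the synapse, stood at 77.4, *Lamb3* at 63.0 and *Lamb1* at 36.6. *Lamc3*, a gamma chain, stood at 65.5.

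**Figure D1:**
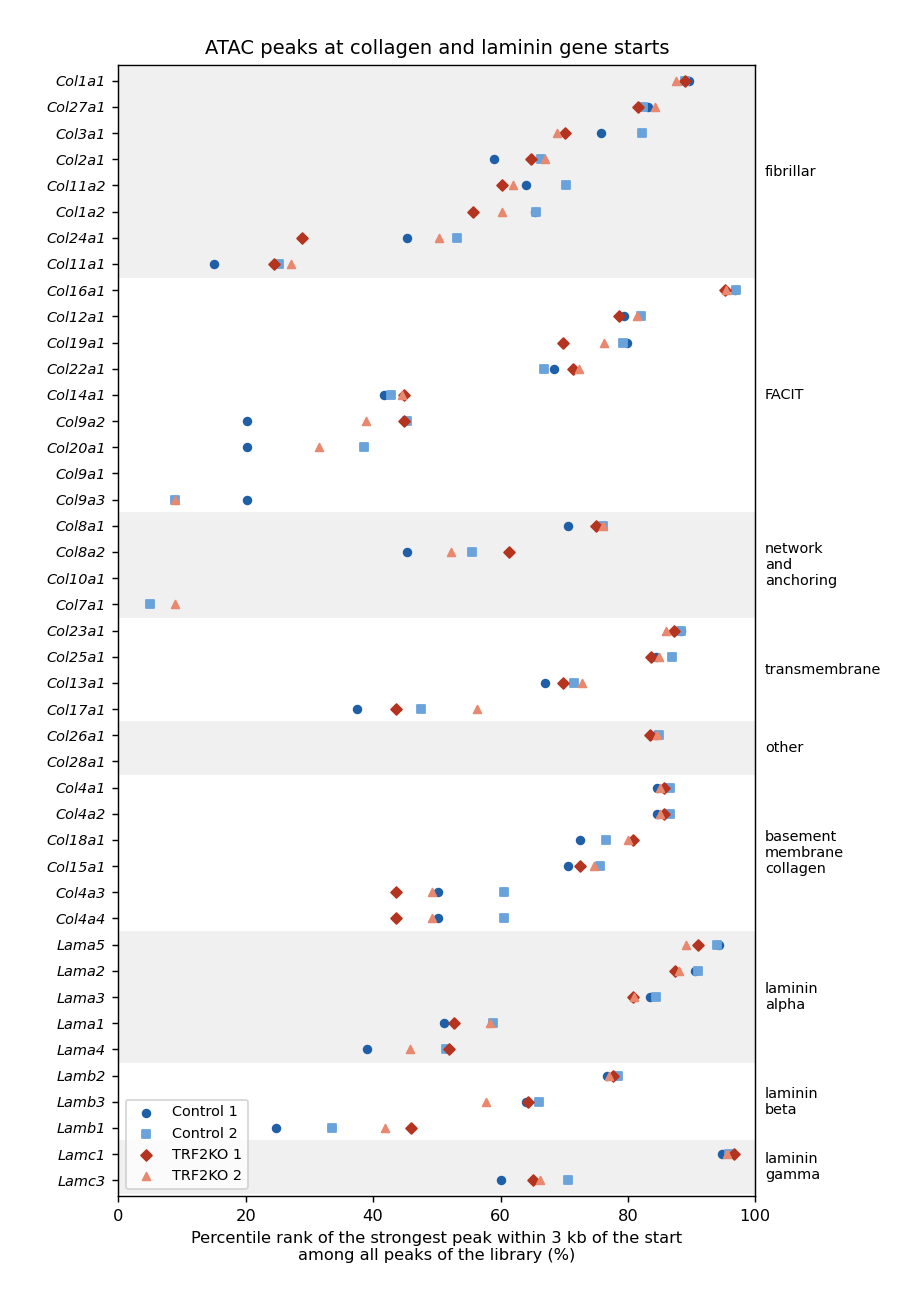
Percentile rank (x axis, %) of the strongest ATAC peak within 3 kb of each gene start among all peaks of the same library, for the genes named here, grouped by role, with 1 point per library. Most genes keep a similar rank in Control and TRF2KO, and *Col10a1*, *Col28a1* and *Col9a1* have no point.

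These genes are long, and their bodies held most of their accessible regions. The median gene length was 114 kb against 17.6 kb over all protein-coding genes, and the median number of ATAC regions 7.5 against 2. Per 10 kb the medians were 1.16 and 0.783. In total 587 ATAC regions lay in the territories, 84 at starts and 503 in bodies, and 386 were intronic. *Col4a2* had the most, 46 regions, followed by *Col4a1* with 43, *Lamb3* with 33 and *Lamc1* with 32. *Lama2*, with a gene length of 639723 bases, had 25. At the other end, *Col11a1* had 2 regions in 190179 bases and *Col9a1* had 1. The GENCODE record of *Lamb3* starts 94295 bases upstream of the RefSeq start and spans *Hsd11b1* and *G0s2*, so part of its count lies in and around those genes.

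**Figure D2:**
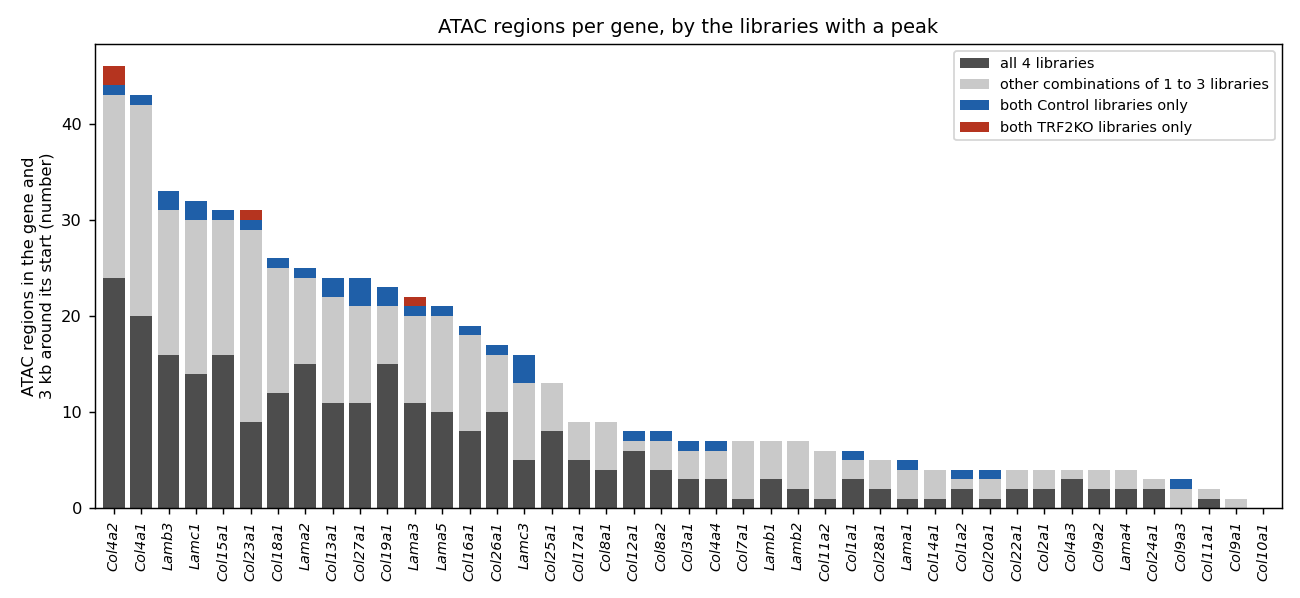
Number of ATAC regions in the territory of each gene named here (y axis), split by the libraries in which MACS called a peak. *Col4a2* and *Col4a1* have the tallest bars, and genotype-specific regions are few in every gene.

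The number of peaks was lower in TRF2KO, by about as much as over the whole genome. Territories held 417 and 468 MACS peaks in the Control libraries (442.5 ± 36.1, SD, n = 2) and 386 and 389 in TRF2KO (387.5 ± 2.12, SD, n = 2), without overlap. The difference of -55 was -12.4%, beside -11.0% for all peaks. With 2 libraries against 2, an exact two-sided permutation test cannot give a p under 0.33. Without the second Control library the difference was -29.5, without the first -80.5, and it reversed with SEACR regions, at +16.5.

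Few regions had a peak in each library of 1 genotype and none in the other genotype. There were 33 Control-specific regions (5.62% of 587), against 4.34% in the territories of all protein-coding genes, and 4 TRF2KO-specific regions (0.681%), against 0.985%. The strongest Control-specific ones were an intron of *Lama1* (chr17:67779920-67780238, folds of 10.6 and 8.10), an intron of *Lamb3* (chr1:193255661-193255988, 10.6 and 7.02) and an exon of *Col12a1* (chr9:79672864-79673126, 6.90 and 4.68). The TRF2KO-specific regions were in introns of *Lama3* (7.78 and 5.67), *Col23a1* (3.43 and 4.77) and *Col4a2* (4.12 and 4.09, then 4.12 and 3.86). GoPeaks or SEACR called a region in the other genotype at 20 of the 33 and at 3 of the 4. Neither class was stable to the caller, as SEACR gave 0 Control-specific and 3 TRF2KO-specific regions. Without the first Control library the Control-specific count rose to 125, and without the second to 72. The TRF2KO-specific count ranged from 11 to 42 when any single library was left out.

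For the 276 regions with a peak in all 4 libraries, the genotypes were compared on the log2 scale of the quantile-normalized fold with limma over all 61610 such regions of the genome. An adjusted p below 0.05 (Benjamini-Hochberg) was reached by 39 collagen and laminin regions that were lower in TRF2KO (14.1%), against 7.32% of all regions, and by 11 that were higher (3.99%), against 4.94%. Away from any coding start, 37 of 219 were lower (16.9%), against 9.87% of such regions in all protein-coding genes, and 8 were higher (3.65%), against 3.68%. Near a coding start, 2 of 57 were lower (3.51%), against 2.42%, and 3 were higher (5.26%), against 5.59%. In bulk cells, fewer cells with a site open and less opening in each cell cannot be told apart. The median difference was -0.06 over the 276 regions and 0.02 over all 61610.

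These calls rest on all 4 libraries and on the scaling. When any single library was left out, no region of the genome passed, those of collagens and laminins included. In those fits the lone library of a group was assumed to vary like the other group. On percentile ranks no region of the genome passed either. There 81 collagen and laminin regions had a limma p below 0.05 before adjustment, 7 higher and 74 lower in TRF2KO. In the main fit these numbers were 30 and 62. The share of all regions with such a p is not given here. All 50 differences kept their sign on ranks, in the same 4 libraries that gave the calls. With median centring in place of quantile normalization, which moved the median of all regions to 0.10, 30 were lower and 23 higher, and over the genome 4606 were lower and 11390 higher in place of 4511 and 3044. Over regions with a peak in at least 2 libraries, 6 of 387 were lower (1.55%), against 1.21% of all 85353, and 4 were higher (1.034%), against 0.524%. All 11 regions higher in TRF2KO and 29 of the 39 lower ones kept their call under median centring.

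**Figure D3:**
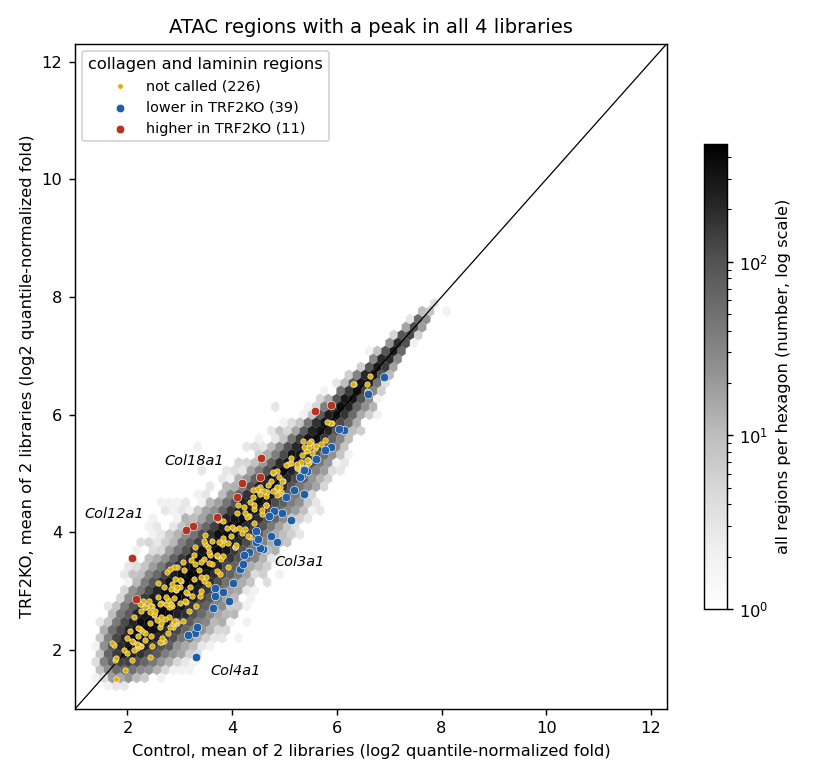
Mean log2 quantile-normalized MACS fold in TRF2KO (y axis) against Control (x axis) for regions with a peak in all 4 libraries, in grey hexagons for all 61610 regions and in coloured points for the 276 collagen and laminin regions. The 39 regions called lower lie under the diagonal and the 11 called higher above it, at the edges of the grey cloud.

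The regions lower in TRF2KO lay in 16 genes, and 7 of those genes had 3 or more. The largest decrease was in an intron of *Col4a1* (chr8:11241318-11242120), where the summit held 46 and 55 fragments in Control and 14 and 15 in TRF2KO. The corresponding folds were 10.8 and 10.1 against 3.43 and 3.63, and the normalized difference was -1.43 ± 0.22 (SE, limma adjusted p = 1.08e-04). It was the only one of 20 tested *Col4a1* regions to pass. *Col23a1*, a transmembrane collagen, had 2 of 9 regions lower. At chr11:51463234-51464324 the folds were 31.8 and 27.5 against 13.04 and 14.1, and the difference -1.03 ± 0.14 (adjusted p = 2.61e-05). At chr11:51493811-51495034 they were 16.8 and 15.3 against 8.005 and 5.67, a difference of -1.11 ± 0.20 (adjusted p = 4.66e-04).

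Several genes of the basement membrane had more than 1 such region. *Lamc1* had 3 of 14 lower, all intronic, led by chr1:153265048-153267521 with folds of 37.7 and 32.8 against 18.3 and 17.5, a difference of -0.90 ± 0.12 (limma adjusted p = 2.44e-05). The other two *Lamc1* introns had 17.0 and 13.1 against 8.005 and 7.04 (-0.84), and 33.6 and 29.3 against 21.96 and 17.0 (-0.62). *Lama5* had 4 of 10 lower, by 0.36 to 0.87 on the log2 scale, the upstream region at its start among them. In its body, an exon had 17.0 and 16.6 against 8.92 and 7.72, an intron 21.9 and 15.8 against 11.0 and 8.85, and another exon 50.4 and 46.4 against 41.4 and 34.3. In all of these the lowest Control value was above the highest TRF2KO value.

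*Col15a1* had 4 of 16 lower, all within the first 30 kb of the gene. From the start inward, its folds were 23.7 and 18.2 against 14.6 and 9.99 (-0.65), 10.4 and 10.4 against 5.03 and 4.31 (-1.02), 45.6 and 36.5 against 29.5 and 32.5 (-0.37), and 43.5 and 35.6 against 32.7 and 28.1 (-0.34). *Col4a2*, with 4 of 24, showed smaller differences at stronger regions, of 39.1 and 34.2 against 27.2 and 24.3 (-0.46), 47.4 and 39.1 against 32.2 and 32.9 (-0.38), 77.3 and 54.4 against 57.4 and 51.7 (-0.30), and 133 and 98.8 against 105 and 101.9 (-0.27). The last 2 overlapped between the groups and were led by the first Control library. *Col4a4* had 1 region lower, with 30.8 and 26.3 against 22.4 and 17.5 (-0.44).

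Among interstitial collagens, *Col16a1* had 4 of 8 lower, clustered in the middle of the gene. Their folds were 64.4 and 52.4 against 43.5 and 44.0 (-0.43), 23.2 and 22.3 against 15.6 and 15.4 (-0.45), 19.6 and 18.9 against 10.3 and 10.7 (-0.74), and 14.04 and 12.8 against 9.83 and 6.36 (-0.61). *Col19a1*, a FACIT collagen expressed in developing muscle, had 3 introns of 15 lower, with 29.9 and 25.4 against 16.7 and 12.7 (-0.82), 24.4 and 21.96 against 15.1 and 13.2 (-0.60), and 9.90 and 11.3 against 5.03 and 4.99 (-0.93). *Col27a1* had 2 of 11, with 42.8 and 40.1 against 25.2 and 23.8 (-0.72) and 45.6 and 38.5 against 33.6 and 32.2 (-0.32). The groups were apart at each of these regions.

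*Col28a1* and *Col7a1* had no start peak common to all libraries, yet each had a body region that was lower in TRF2KO. The folds were 12.9 and 13.1 against 5.72 and 6.81 at *Col28a1* (-0.91), and 13.1 and 13.7 against 8.23 and 6.13 at *Col7a1* (-0.76). An intron of *Col24a1* had 10.1 and 8.82 against 4.80 and 4.31 (-0.91). Among the 39 lower regions, the raw folds of Control and TRF2KO overlapped at 2 introns of *Col4a2* and 1 of *Lamb3*. Separation at the others adds no support, because the regions were called on these same folds.

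At *Col3a1*, which encodes type III collagen of reticular fibres, the lower region covered the start itself. Its folds were 23.0 and 24.8 in Control and 12.8 and 12.5 in TRF2KO, from 99, 137, 55 and 54 fragments. The difference was -0.80 ± 0.16 (SE, limma adjusted p = 0.00115). A neighbouring *Col3a1* region 1203 bases into the gene had 20.3 and 16.4 against 17.2 and 15.2 and was not called (adjusted p = 0.861). The 250 bases upstream of the start in RefSeq (chr1:45311288-45311537, plus strand, mm10) are AT-rich, with 35.2% G or C, and capitals mark the TATAAA match, found on either strand in 12.4% of 32851 such windows. At *Lama5*, the other gene with a lower region near the start, that region lay 940 bases upstream, and the one covering the start was not called, with 21.4 and 24.8 against 29.3 and 23.2 (adjusted p = 0.269). The same window of *Lama5* (chr2:180225860-180226109, minus strand) lies in the region that was not called. It is 72.4% G or C and carries 4 matches to GGGCGG on either strand, in capitals, a motif found in 32.7% of windows.
Col3a1 upstream: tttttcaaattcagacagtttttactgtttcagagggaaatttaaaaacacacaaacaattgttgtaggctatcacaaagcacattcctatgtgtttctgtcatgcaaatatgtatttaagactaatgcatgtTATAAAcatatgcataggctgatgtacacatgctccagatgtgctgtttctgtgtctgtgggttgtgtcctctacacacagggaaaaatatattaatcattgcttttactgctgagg
Lama5 upstream: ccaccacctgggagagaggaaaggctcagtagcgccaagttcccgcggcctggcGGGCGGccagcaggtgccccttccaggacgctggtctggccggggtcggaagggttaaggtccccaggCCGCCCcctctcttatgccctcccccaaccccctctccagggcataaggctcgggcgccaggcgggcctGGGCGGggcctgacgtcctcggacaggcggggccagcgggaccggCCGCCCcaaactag

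The 11 regions higher in TRF2KO lay in 6 genes. The largest increase touched an exon of *Col12a1* (chr9:79648564-79649034), a FACIT collagen of tendon and muscle. Its folds were 4.83 and 4.14 in Control and 12.8 and 9.76 in TRF2KO, from 20, 22, 55 and 42 fragments, and the difference was 1.47 ± 0.22 (SE, limma adjusted p = 5.80e-05). *Lamb1*, which encodes a laminin beta chain, had 2 of 3 regions higher. One covered its start, with folds of 4.83 and 4.50 against 7.55 and 6.36 (0.70 ± 0.23, adjusted p = 0.0412). The other lay in the body, with 24.2 and 24.1 against 40.7 and 35.9 (0.71 ± 0.12, adjusted p = 2.07e-04). *Col18a1* had 2 of 12 higher, one of them at its start, with 19.8 and 18.2 against 29.5 and 26.6 (0.65 ± 0.13, adjusted p = 0.00160). Its other region had 13.1 and 14.4 against 18.5 and 18.4 (0.55). The second of 6 *Col12a1* regions to rise lay in an intron, with 52.9 and 42.8 against 74.3 and 62.9 (0.48). *Col25a1* and *Lama2* had 1 intronic region each, and at *Col25a1* the folds were 10.1 and 8.28 against 17.6 and 14.1 (0.92).

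*Lamb3* had regions in both directions, 3 higher and 5 lower of 16. The 3 higher ones lay upstream of the RefSeq start, 2 of them within *Hsd11b1*, with 65.6 and 51.1 against 77.8 and 70.1 (0.29), 16.6 and 18.9 against 26.1 and 21.3 (0.52), and 10.4 and 9.90 against 17.6 and 15.7 (0.86). Of the 5 lower ones, 4 lay downstream of that start. These had 102.2 and 86.0 against 88.3 and 79.2 (-0.26), 34.5 and 32.2 against 23.8 and 23.2 (-0.45), 24.6 and 24.7 against 14.9 and 10.4 (-0.87), and 17.95 and 21.1 against 12.6 and 10.7 (-0.62). The fifth, near the GENCODE start, had 57.5 and 50.8 against 39.8 and 44.0 (-0.38). No lower region of any of these genes overlapped another protein-coding gene.

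**Figure D4:**
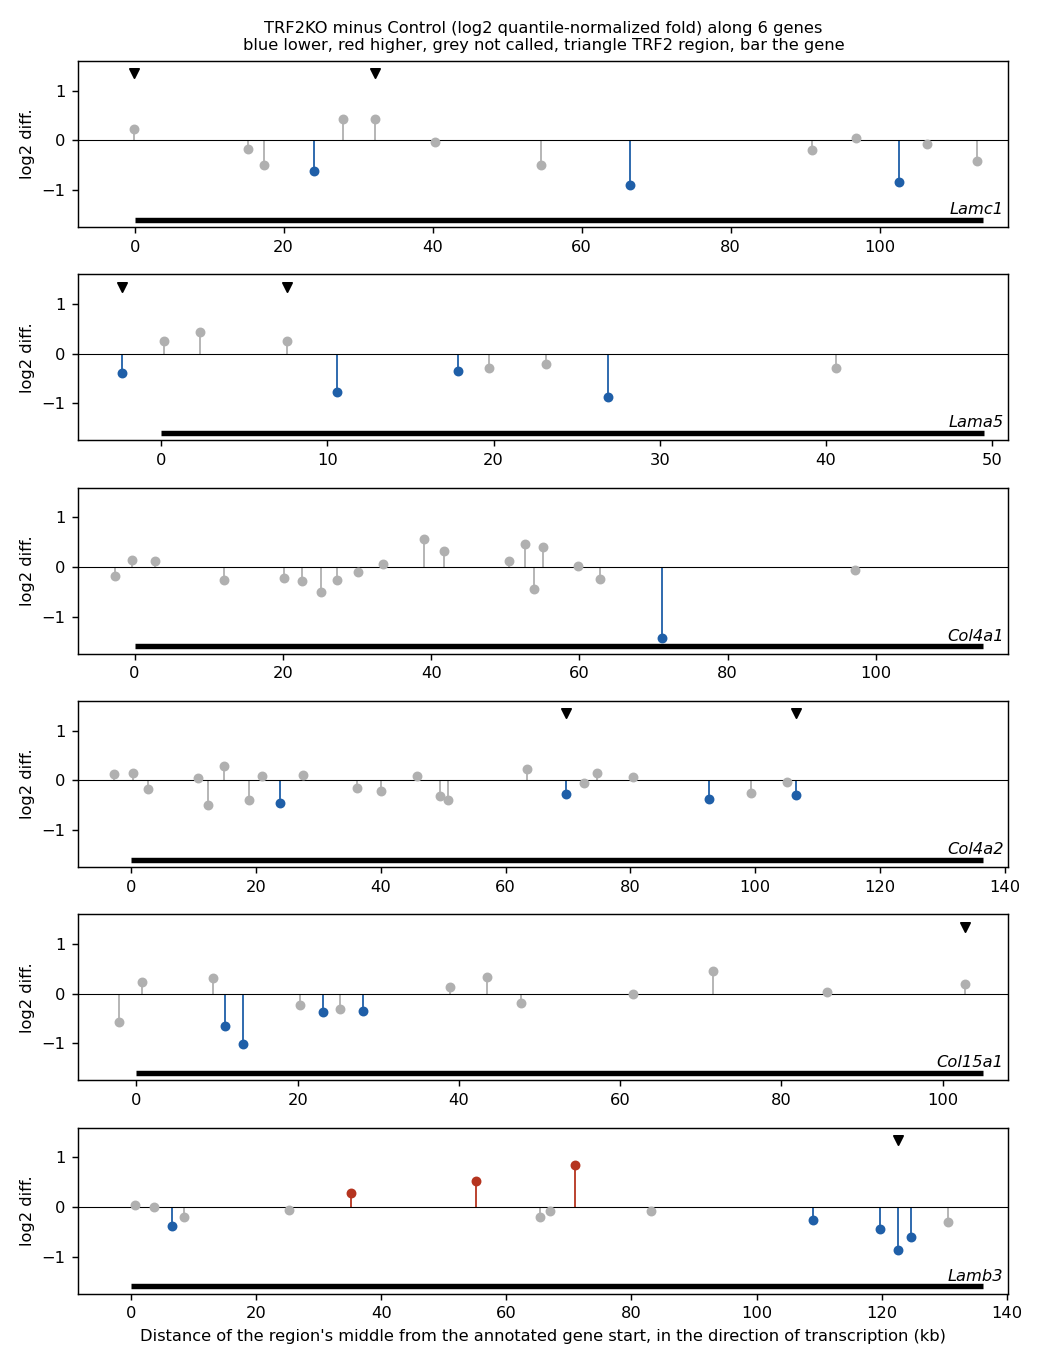
Difference between TRF2KO and Control (y axis, log2 quantile-normalized fold) of each tested ATAC region along 6 genes, against its distance from the annotated start (x axis, kb). Lower calls are spread over the bodies of *Lamc1* and *Lama5*, and those of *Col15a1* lie toward its start. *Col4a1* has a single lower call, and the higher calls of *Lamb3* precede most of its lower ones.

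The 120 bases around the ATAC summit are printed for the 2 regions with the largest change in each direction, as plus-strand mm10 sequence. Capitals mark CAGCTG, an E-box of the kind bound by myogenic factors, and TGANTCA, the AP-1 site. Both motifs read the same on either strand.
Col4a1 lower, chr8:11241610-11241729: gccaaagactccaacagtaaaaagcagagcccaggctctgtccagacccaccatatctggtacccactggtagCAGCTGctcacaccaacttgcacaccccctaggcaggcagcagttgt
Col23a1 lower, chr11:51494370-51494489: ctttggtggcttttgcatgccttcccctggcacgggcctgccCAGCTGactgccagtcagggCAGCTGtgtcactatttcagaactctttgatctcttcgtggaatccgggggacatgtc
Col12a1 higher, chr9:79648745-79648864: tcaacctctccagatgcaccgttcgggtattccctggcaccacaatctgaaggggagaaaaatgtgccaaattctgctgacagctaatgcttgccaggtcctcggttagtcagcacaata
Col25a1 higher, chr3:130497272-130497391: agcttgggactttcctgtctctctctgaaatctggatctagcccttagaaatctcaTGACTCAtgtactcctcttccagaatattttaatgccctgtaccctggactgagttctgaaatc

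In windows of 200 bases at the summit, CAGCTG was present in 20 of the 39 lower regions (51.3%) and in 1 of the 11 higher ones. For comparison, it was present in 33.8% of the 219 collagen and laminin regions away from coding starts, and in 33.6% of such regions in all protein-coding genes. TGANTCA was present in 7 of 39 lower and 3 of 11 higher regions. Over the 219 regions it was found in 21.9%, and over all protein-coding genes in 15.9%. These motif counts carry no test.

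TRF2 occupied few starts of these genes. A TRF2 region lay within 3 kb of the start at 3 of 44 genes (6.82%), against 24.1% of all protein-coding genes, and IgG had a start peak at 0 of 44, against 0.159% of all genes. The share was also read by the strength of the start peak. Among genes whose start peak ranked from 80 to 100, 2 of 13 collagen and laminin genes had a TRF2 region, against 49.6% of 9471 genes. In the next band, from 60 to 80, 0 of 13 had one, against 9.62% of 2443. From 40 to 60 it was 1 of 8, against 4.01% of 1073, and from 20 to 40 it was 0 of 4, against 2.19% of 594. With a peak in either TRF2 replicate counted, 15 genes (34.1%) were reached, against 41.3% of all genes. The 3 were *Lamc1*, *Lama5* and *Col14a1*.

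The *Lamc1* region was the strongest of the 3, with folds of 8.51 and 11.2 and 28 and 27 fragments, and it covered the start. The ATAC region there did not pass the genotype test (difference 0.22, limma adjusted p = 0.0567). The *Lama5* region, 1710 bases upstream, had folds of 5.43 and 5.64 and lay inside the ATAC region that was lower in TRF2KO, by 0.38 ± 0.09 (SE, adjusted p = 0.00471). That call was lost with median centring (adjusted p = 0.123). The *Col14a1* region, 145 bases into the gene, had folds of 3.89 and 6.09 from 5 and 8 fragments. *Col14a1* encodes a FACIT collagen of dense connective tissue.

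G4 matches close to the start were found at other genes than TRF2 regions. In the 500 bases centred on the start, 22 of the 44 genes had a G4 match (50%), against 30.4% of all genes, and none of those 22 had a TRF2 region within 3 kb of the start. The 3 genes with a TRF2 region had no match in that narrower window. At *Lamc1* a match lay farther upstream, within the TRF2 region that covers the start. The matches nearest the start are printed for the 4 genes with the strongest start peaks among the 22, with G runs in capitals on the strand that carries them. The start is that of GENCODE. At *Lama2* the RefSeq start and the start peak lie farther inside the gene, the RefSeq start by 2816 bases.
Col16a1, chr4:130047681-130047700, plus strand: GGGcGGGcccGGGcgcaGGG
Lama2, chr10:27619971-27619997, plus strand: GGGaGGGagagaGGGGGaggcacaGGG
Col1a1, chr11:94936061-94936078, plus strand: GGGaGGGGGGGcgctGGG
Col23a1, chr11:51289894-51289919, minus strand: GGGGaGGGcGGGGGtggtggtGGGGG

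Most TRF2 regions of these genes lay away from the starts. The 18 regions called in both replicates lay in 15 genes (34.1%), against 29.5% of all genes, which are shorter. Of the 18, 3 were at starts and 15 in bodies, and 13 coincided with an ATAC peak in all 4 libraries. A G4 match was present in 5 of the 18 (27.8%), against 35.5% of all 7414 TRF2 regions. These 5 lay in *Lamc1*, *Lama1*, *Lama2*, *Col18a1* and *Col27a1*. The 2 shares are not matched by position, as 58.7% of all TRF2 regions lay within 3 kb of a coding start. The median G or C content was 54.7% over the 18 regions and 62.2% over all TRF2 regions. By the mean of the 2 replicates, the strongest after *Lama1* and *Lamc1* was an intron of *Col27a1* with folds of 7.46 and 8.80.

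Of the 13 tested ATAC regions that held a TRF2 region, 6 passed the genotype test, 1 higher and 5 lower. Over the genome 6480 tested regions held a TRF2 region, of which 6.6% were higher and 3.63% lower. These shares are not matched by position. With or without TRF2, 2.42% of tested regions near a coding start were lower, and 9.87% of those elsewhere in coding genes. The region in *Lama2* was higher in TRF2KO, with ATAC folds of 25.3 and 22.5 against 31.8 and 28.4 (0.40 ± 0.12, SE, limma adjusted p = 0.0298). The other 5 were lower, by 0.87 at an exon of *Lamb3*, 0.43 at *Col16a1*, 0.38 at the *Lama5* start, and 0.30 and 0.27 at 2 introns of *Col4a2*. At both *Col4a2* introns the raw folds overlapped, and the calls were lost with median centring (adjusted p of 0.450 and 0.967).

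**Figure D5:**
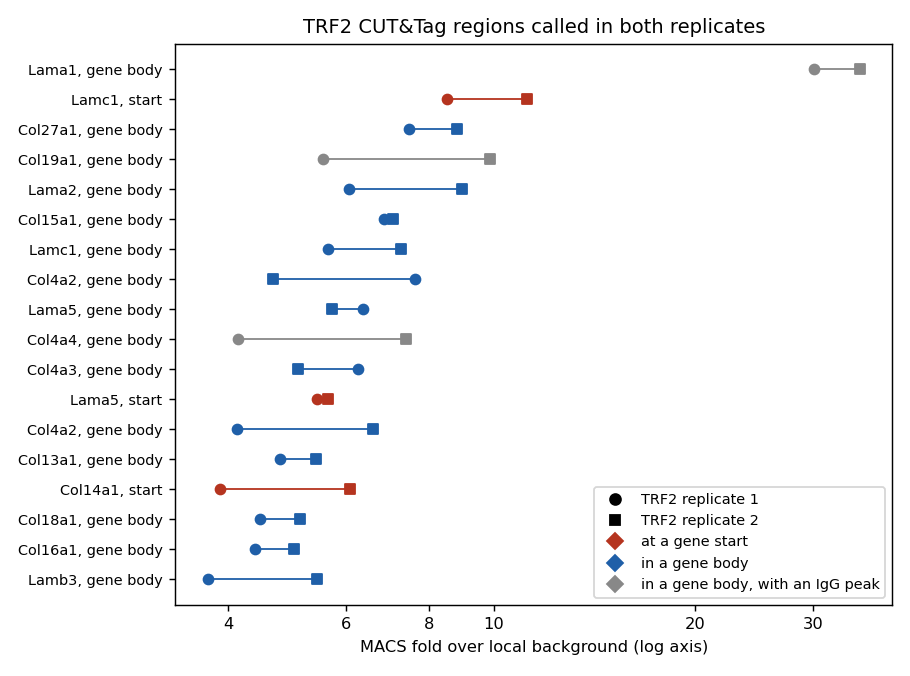
MACS fold (x axis, log scale) of the 18 TRF2 regions called in both CUT&Tag replicates, with 1 row per region, a circle for replicate 1 and a square for replicate 2. The *Lama1* region stands apart at 30.2 and 35.3, and the 3 regions at starts, in red, run from 3.89 to 11.2.

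Genes that act with collagens and laminins were read from lists, beside 24.1% of all genes with a TRF2 region at the start and, of all tested regions, 4.94% higher and 7.32% lower in TRF2KO. Of 12 receptors, 10 had a start peak in all 4 libraries and 3, *Itgb1*, *Dag1* and *Ddr2*, a TRF2 region at the start. *Itgb1* encodes the beta-1 chain shared by most laminin and collagen integrins, and *Dag1* encodes dystroglycan. Of 54 tested receptor regions, 3 were higher (5.56%) and 4 lower (7.41%) in TRF2KO. All 4 other basement membrane genes had a start peak, and the perlecan gene *Hspg2*, the agrin gene *Agrn* and *Nid2* had a TRF2 region at the start, while *Nid1* had none. Their 23 tested regions gave 0 higher and 3 lower (13.04%).

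Of 17 collagen biosynthesis genes, 15 had a start peak in all 4 libraries and 4, *P4ha1*, *Plod2*, *P3h1* and *Ppib*, a TRF2 region at the start. These encode enzymes and a chaperone that hydroxylate and fold procollagen. Among their 60 tested regions, 5 were higher (8.33%) and 10 lower (16.7%), against the same 4.94% and 7.32% of all regions. Of the 9 collagen V and VI genes, 7 had a start peak throughout and 2, *Col5a3* and *Col6a5*, a TRF2 region at the start, and 42 tested regions gave 4 higher (9.52%) and 9 lower (21.4%). Regions of the MuSC markers gave 3 higher and 4 lower of 42, those of endothelial markers 2 and 0 of 16, and those of smooth muscle and pericyte markers 1 and 1 of 10. The 3 regions of fibroblast markers, 1 of Schwann cell and 1 of tenocyte markers gave none, and immune markers had no region to test.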

How the data were processed

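ATAC-seq and CUT&Tag peak lists on mm10 (GRCm38) were used as deposited by the authors. Per the labels, CUT&Tag reads were trimmed with cutadapt 4.4, aligned with Bowtie2 2.4.4 and called with MACS3 3.0.0, and ATAC reads were aligned with Bowtie2 2.5.4 and called with MACS3 3.0.2 and SEACR 1.3. The deposited MACS lists give the fold (ratio) of summit pileup over background, as defined above, and −log10 p and q values. The deposited SEACR lists give summed signal, and the GoPeaks lists by the authors give positions. The authors' merged lists across libraries were not used. No read counts were analysed. Summit fragments were recovered from fold and p for TRF2 peaks and for the medians per library. At single ATAC peaks they were recovered from the fold and the median background of the library.

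Peaks of the compared libraries were merged into regions when they shared at least 1 bp, and the highest fold per library was kept. Territories were the GENCODE M21 gene and 3 kb around its start. Genotypes were compared with limma 3.58.1 (R 4.3.3, empirical Bayes with trend) on quantile-normalized log2 fold over regions with a peak in all 4 libraries, unpaired, with Benjamini-Hochberg adjustment over all regions. Merging, motif searches and figures used Python 3.11.15. The limma step was tested on simulated data. RefSeq upstream sequences (GRCm38.p6) were matched by symbol for 30 of 44 genes. An overlap needed 1 bp.

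Values in every library were given for genes with a TRF2 region at the start, the 10 highest start peaks, head-to-head pairs, regions past the limma threshold and the strongest genotype-specific regions. *Pdgfra*, the printed sequences and the promoter motifs were chosen after their values were seen. The values of 1 gene, which stays in the totals, and the sequences of some TRF2 regions are not reported here. The genes and lists were chosen with earlier results of these data known. The p-values rest on the spread between the libraries, moderated by limma towards that of all regions. The residual and prior degrees of freedom together had a median of 24.6. With 2 libraries per genotype, most of these came from the prior.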

Additional observations from a re-analysis of the deposited data

How the results depend on the processing

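Of 76 recomputed values, 36 stayed within 1.5 times the main value or within 1 SD, 39 moved and 1 reversed. With SEACR regions the start count fell to 23 genes, the peak number difference turned to +16.5, and 0 Control-specific regions were left. With GoPeaks regions the Control-specific count was 15 and the TRF2KO-specific count 2, and with a −log10 q of at least 5 the TRF2KO-specific count was 2 and the number of TRF2 regions 7. The number of regions changed between genotypes, 50, was 0 on percentile ranks, 10 with regions in at least 2 libraries, and 0 to 0 with any library left out, while a smaller number of libraries enters those fits. Leaving out a library gave 48 to 125 Control-specific and 11 to 42 TRF2KO-specific regions. A peak in either TRF2 replicate gave 15 genes at the start, 66 regions and 12 with a G4 match, and leaving out either replicate gave 8 to 10 genes, 42 to 42 regions and 7 to 9 with a G4 match, since a single library then suffices.

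Replicate numbers did not pair the libraries, as same-numbered deviations correlated at 0.01 over 61610 regions. With the replicate block the changed regions numbered 54 and the peak difference was -55, and counts of presence and absence have no block. The cause of the changes between callers was not tested. Depth limits the TRF2 regions, whose summits held a median of 9 fragments.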
